A study of Mus musculus with 63 samples.

Results

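Oligodendrocyte precursor cells (OPCs) are the dividing glia of the adult brain that give rise to myelinating oligodendrocytes, and 10 genes that mark them were followed here through 4 cell populations sorted from mouse brain. The genes were Pdgfra, Cspg4, Olig1, Olig2, Sox10, Gpr17, Tnr, Vcan, Ptprz1 and Lhfpl3, chosen by symbol, and they were 10 of the 56980 gene identifiers in the count tables. All 10 had more than the minimum of 10 counts in each comparison and none was lost to a filter.

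The libraries came from female C57BL/6J mice, 12 weeks old on arrival, that had received a full-thickness burn over 7 to 8% of the body surface on the right flank, or a sham procedure, and were taken 5 weeks later. Every mouse, burned or sham, had also had viral vectors injected into motor cortex, in which the CaMKII promoter drove eGFP and the mDlx enhancer drove mRuby2, so that the fluorescent gates depend on where those elements are active. The 4 populations were CaMKII-positive cells (labelled excitatory neurons) and double-positive cells (labelled inhibitory neurons) from motor cortex, and ACSA2-positive cells (labelled astrocytes) and CD11b-positive cells (labelled microglia) from cortex caudal to it, so for neuron against glia gates the region and the gate cannot be told apart. After leaving out mouse 3 and the double-positive library of mouse 8, 58 of 63 libraries from 17 mice remained, with 4 burn and 6 sham in CaMKII, 9 and 7 in double-positive, 9 and 8 in ACSA2, and 8 and 7 in CD11b. Each replicate was a separate mouse, and most mice gave several populations. Total counts per kept library ran from 13346143 to 134703744 with a median of 24339895.5, and levels are given as CPM, the count of a gene scaled to a common library total.

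In the adult brain OPCs tile the grey and white matter, and they are known for slow division and for direct synaptic input from neurons. Platelet-derived growth factor AA acts through the receptor Pdgfra to keep them dividing, Olig1, Olig2 and Sox10 form the transcription factor core of the whole lineage, and Gpr17 marks the brief stage at which a precursor commits to differentiation. Several of the 10 genes are shared with other cells: Cspg4 (the proteoglycan NG2) with pericytes, and Ptprz1, Vcan and Olig2 with some astrocytes.

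The labelled cell types were first compared with marker genes. In the CaMKII libraries, 8 neuronal genes (among them Rbfox3, Snap25 and Slc17a7) summed to only 17.1 to 158 CPM, whereas 8 astrocyte genes summed to 11670 to 21770 CPM and 6 endothelial genes to 2993 to 8645 CPM. The double-positive libraries held 7.15 to 33.9 CPM of the neuronal genes, with 3 of the 8 averaging under 1 CPM, and 16010 to 30530 CPM of 8 microglial genes, close to the 19390 to 30560 CPM of the CD11b libraries. The ACSA2 libraries carried the astrocyte genes, at 31090 to 44680 CPM, and the CD11b libraries the microglial ones. Both neuron labels therefore went against the markers, and the names CaMKII and double-positive stand below for the libraries so labelled, not for a cell type.

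The sequence just upstream of the start site was read for the members, as the stretch in which basic helix-loop-helix factors such as Olig2 could meet an E-box. RefSeq promoters (GRCm38.p6, 250 bases before the start) were matched for 7 of the 10 members, all but Olig1, Sox10 and Gpr17. Shown are Pdgfra and Lhfpl3, which were higher in CaMKII than in ACSA2 libraries, and Olig2 and Ptprz1, which were not, each 5′ to 3′ on the strand of the gene, with every CANNTG in capitals. Pdgfra lies at chr5:75152001-75152250 (+), Lhfpl3 at chr5:22745804-22746053 (+), Olig2 at chr16:91225300-91225549 (+) and Ptprz1 at chr6:22875252-22875501 (+).
Pdgfra: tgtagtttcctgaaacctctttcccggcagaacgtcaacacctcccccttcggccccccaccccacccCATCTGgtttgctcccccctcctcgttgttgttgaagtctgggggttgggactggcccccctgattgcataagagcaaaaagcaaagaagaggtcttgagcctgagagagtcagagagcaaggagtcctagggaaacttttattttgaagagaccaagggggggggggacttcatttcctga
Lhfpl3: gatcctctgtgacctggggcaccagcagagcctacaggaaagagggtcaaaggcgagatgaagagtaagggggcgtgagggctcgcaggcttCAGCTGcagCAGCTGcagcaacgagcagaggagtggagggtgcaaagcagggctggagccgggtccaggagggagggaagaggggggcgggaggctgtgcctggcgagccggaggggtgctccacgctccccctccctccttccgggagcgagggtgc
Olig2: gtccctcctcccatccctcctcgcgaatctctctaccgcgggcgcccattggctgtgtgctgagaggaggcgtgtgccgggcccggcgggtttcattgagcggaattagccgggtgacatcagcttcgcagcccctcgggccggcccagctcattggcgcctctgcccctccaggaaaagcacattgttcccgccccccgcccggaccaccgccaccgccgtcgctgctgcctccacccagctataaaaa
Ptprz1: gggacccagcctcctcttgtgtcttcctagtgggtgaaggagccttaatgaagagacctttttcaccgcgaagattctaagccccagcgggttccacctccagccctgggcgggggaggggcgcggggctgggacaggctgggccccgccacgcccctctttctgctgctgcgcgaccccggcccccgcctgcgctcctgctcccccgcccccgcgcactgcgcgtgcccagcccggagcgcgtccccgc
The E-box CANNTG, which reads as the same pattern on both strands, was in 3 of the 7 windows and in 66.2% of all 32851 RefSeq promoters of the same length. CAGCTG, a form of CANNTG, occurred at 2 positions in Lhfpl3 and in 13.0% of all promoters. CAGATG, searched on both strands and also a form of CANNTG, occurred once in Pdgfra, as its complement CATCTG, and in 14.4% of all promoters. ACAANG, the core of SOX protein sites searched on both strands, was in 3 of the 7 members and in 36.3% of all promoters. The windows with CANNTG were those of Pdgfra, Lhfpl3 and Vcan, while Cspg4 and Tnr, which were also higher in CaMKII than in ACSA2 libraries, held none. Olig1, Sox10 and Gpr17 had no window, and whether the motif bears on that difference was not tested. A match describes the letters and no binding was measured.

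All 10 genes were present in every CaMKII library, and their summed level there (1165 to 2791 CPM, median 2356) was near that of the ACSA2 libraries (2072 to 3040, median 2683) and far from that of the double-positive (24.7 to 336, median 71.9) and CD11b libraries (5.16 to 36.7, median 13.0). Most of the sum in CaMKII and ACSA2 libraries was Ptprz1, a receptor tyrosine phosphatase that binds pleiotrophin and tenascins. The other 9 genes ranged from those near the CaMKII level in ACSA2 libraries (Olig1, Olig2 and Vcan), through Cspg4 and Tnr, to those under 6 CPM on average there (Pdgfra, Sox10, Gpr17 and Lhfpl3).

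**Figure D1:**
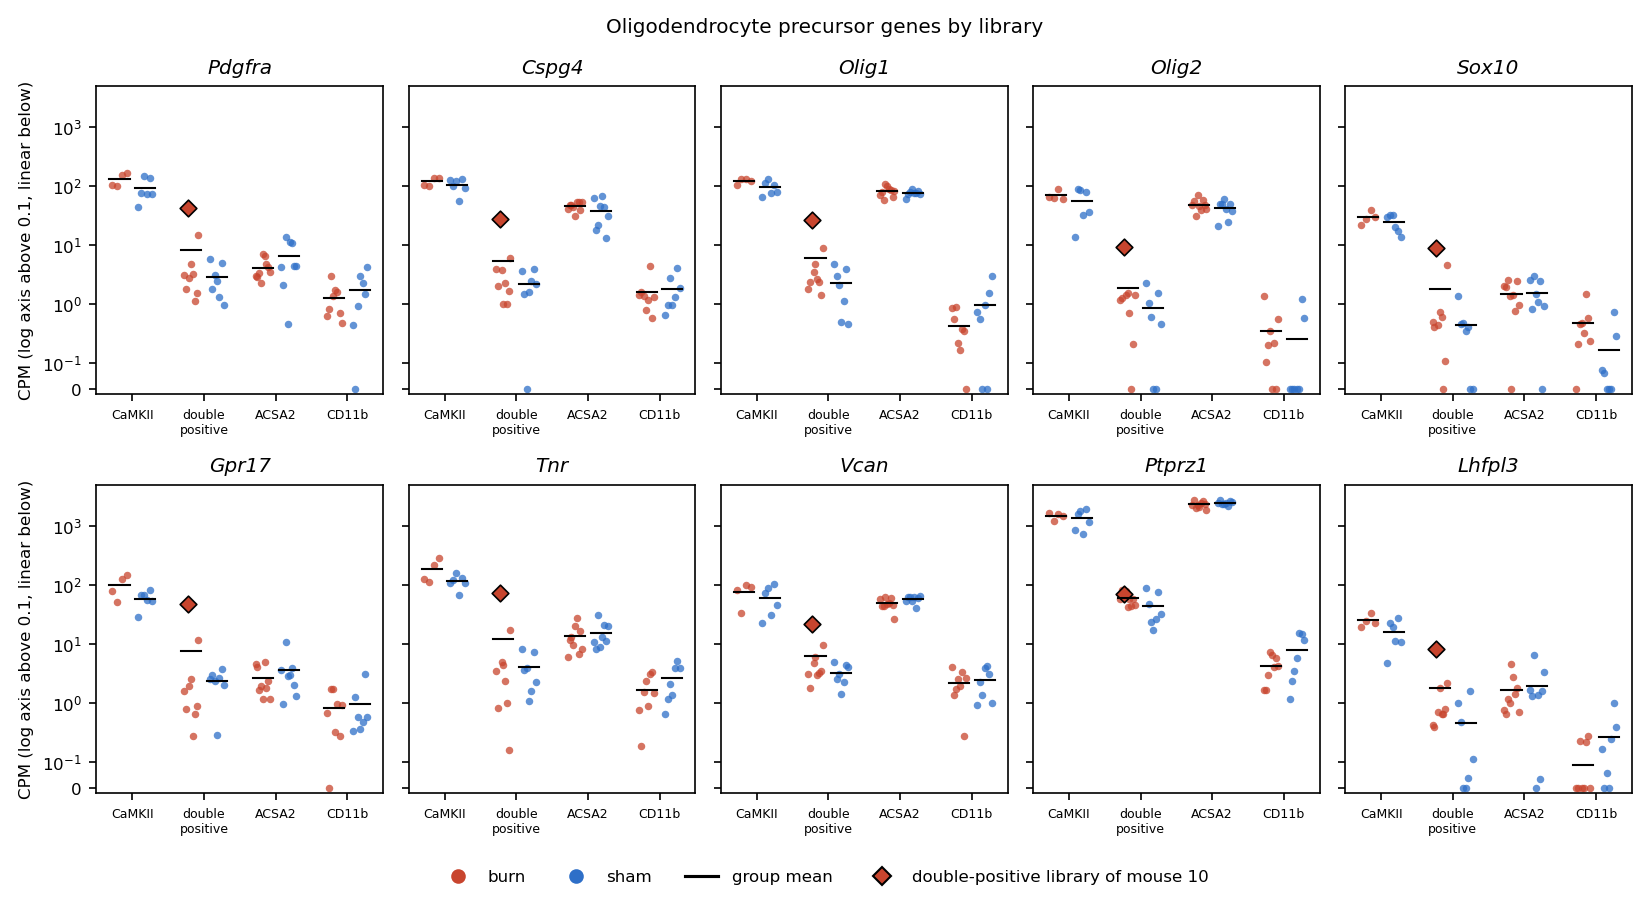
CPM of each of the 10 genes in every kept library (log axis above 0.1, linear below), by population and by treatment, burn in red and sham in blue; each point is 1 library, the line is the group mean and the diamond is the double-positive library of mouse 10. Pdgfra, Sox10, Gpr17 and Tnr in the CaMKII libraries sit above every ACSA2 library, while Ptprz1 is highest in ACSA2, at a mean of 2408 CPM against 1423.

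Among the receptors and surface proteins, Pdgfra averaged 108 ± 42.1 CPM in CaMKII (SD, n = 10), 5.95 ± 10.1 in double-positive (n = 16), 5.20 ± 3.59 in ACSA2 (n = 17) and 1.5 ± 1.16 in CD11b libraries (n = 15). Gpr17, an orphan G protein-coupled receptor, averaged 75.7 ± 35.2, 5.27 ± 11.5, 3.08 ± 2.41 and 0.886 ± 0.802 CPM in the same order. Lhfpl3, a tetraspan membrane protein, averaged 19.7 ± 8.67, 1.20 ± 2.02, 1.81 ± 1.68 and 0.172 ± 0.265 CPM. For these 3 genes the CaMKII mean exceeded the next highest by more than the SD of either, and the double-positive and ACSA2 means lay within their spread of each other. The double-positive means rest in part on 1 library, that of mouse 10: without it they were 3.56 CPM for Pdgfra, 2.47 for Gpr17 and 0.723 for Lhfpl3, each below the ACSA2 mean. Cspg4 averaged 111 ± 24.9 CPM in CaMKII and 42.3 ± 15.1 in ACSA2 libraries, against 4.02 ± 6.37 in double-positive (2.47 without mouse 10) and 1.69 ± 1.18 in CD11b. Ptprz1 was the only member with its highest mean in ACSA2, at 2408 ± 257 CPM, before 1423 ± 407 in CaMKII, 53.3 ± 22.0 in double-positive and 5.96 ± 4.65 in CD11b libraries.

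The 3 transcription factors did not share a pattern. Olig1 averaged 106 ± 25.1 CPM in CaMKII and 79.5 ± 13.1 in ACSA2 libraries, against 4.40 ± 6.33 in double-positive and 0.676 ± 0.761 in CD11b. Olig2 averaged 61.6 ± 26.6 and 45.2 ± 12.4 CPM in CaMKII and ACSA2, against 1.43 ± 2.18 and 0.304 ± 0.446. Sox10, which in the brain is restricted to the oligodendrocyte lineage, averaged 26.4 ± 7.91 CPM in CaMKII and only 1.51 ± 0.899 in ACSA2, 1.21 ± 2.36 in double-positive and 0.329 ± 0.399 in CD11b libraries. Without mouse 10 the double-positive means of Olig1, Olig2 and Sox10 were 2.90, 0.91 and 0.688 CPM. So ACSA2 libraries held Olig1 and Olig2 at levels whose range overlapped that of the CaMKII libraries, and held Sox10 at levels that did not. In CD11b libraries Olig2 had no count in 7 of 15 and Lhfpl3 no count in 7 of 15, where 3 counts would correspond to 0.0547 to 0.181 CPM.

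The matrix genes were also split. Tnr, which encodes tenascin-R of perineuronal nets, averaged 144 ± 62.9 CPM in CaMKII and 14.4 ± 7.34 in ACSA2 libraries. Vcan, the hyaluronan-binding proteoglycan versican, averaged 67.9 ± 31.2 and 52.9 ± 10.4 CPM, an overlap of ranges (22.8 to 105 against 26.7 to 65.0). In double-positive and CD11b libraries Tnr averaged 8.53 ± 17.9 and 2.13 ± 1.48 CPM, and Vcan 4.97 ± 4.86 and 2.31 ± 1.23. Without mouse 10 the double-positive means were 4.18 CPM for Tnr and 3.86 for Vcan.

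Per kilobase of merged exons, the order of levels in CaMKII libraries was Ptprz1 (99.9 ± 28.6 CPM per kb), Olig1 (49.1 ± 11.6), Olig2 (24.3 ± 10.5), Gpr17 (14.6 ± 6.78), Tnr (11.2 ± 4.89), Pdgfra (10.8 ± 4.20), Cspg4 (9.31 ± 2.09), Sox10 (8.66 ± 2.59), Lhfpl3 (6.14 ± 2.7) and Vcan (4.69 ± 2.16). From Gpr17 to Vcan each neighbour in that order was within 1 SD of the next. In ACSA2 libraries Ptprz1 reached 169 ± 18.0, Olig1 36.8 ± 6.03 and Olig2 17.9 ± 4.89 CPM per kb, whereas Pdgfra, Sox10, Gpr17 and Lhfpl3 lay between 0.496 and 0.593.

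The first comparison asks how the populations differ, tested for all genes with edgeR's quasi-likelihood test, Benjamini-Hochberg adjusted (p.adj), with calls at p.adj of at most 0.05 and a log2 fold change (log2FC) of at least 1 in size. Between CaMKII and ACSA2 libraries 6 of the 10 genes were higher in CaMKII and none was lower, where 12.7% of the 30729 genes tested were called higher in CaMKII. Gpr17 differed most, at a log2FC of 4.65 ± 0.355 (SE; 25.0-fold, p.adj 2.11e-11). It was followed by Pdgfra at 4.24 ± 0.338 (18.9-fold, p.adj 4.35e-11) and Sox10 at 4.13 ± 0.434 (17.6-fold, p.adj 6.48e-09). Lhfpl3 (3.46 ± 0.502), Tnr (3.18 ± 0.251) and Cspg4 (1.18 ± 0.180) were higher as well, and all 6 genes were higher in CaMKII in 10 of 10 mice that gave both libraries. For Pdgfra, Sox10, Gpr17 and Tnr the lowest CaMKII library was above the highest ACSA2 library, as for 4.92% of all genes tested.

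The remaining 4 genes were not called. Olig1 stood at a log2FC of 0.27 ± 0.101 (p.adj 0.0401, under the fold required), Olig2 at 0.35 ± 0.207 (p.adj 0.221) and Vcan at 0.23 ± 0.207 (p.adj 0.448). Ptprz1 was lower in CaMKII in 10 of 10 mice, at -0.91 ± 0.142 (p.adj 6.37e-06), again under the fold required. With scaling by library size alone the median over all genes moved from 0.00 to 0.16, and Olig1, Olig2, Vcan and Ptprz1 then stood at 0.44, 0.51, 0.39 and -0.75. With mouse as a block the p.adj of Olig1 was 0.12. In bulk libraries, fewer cells of a type and less RNA per cell cannot be told apart, and this holds for every difference given here.

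**Figure D2:**
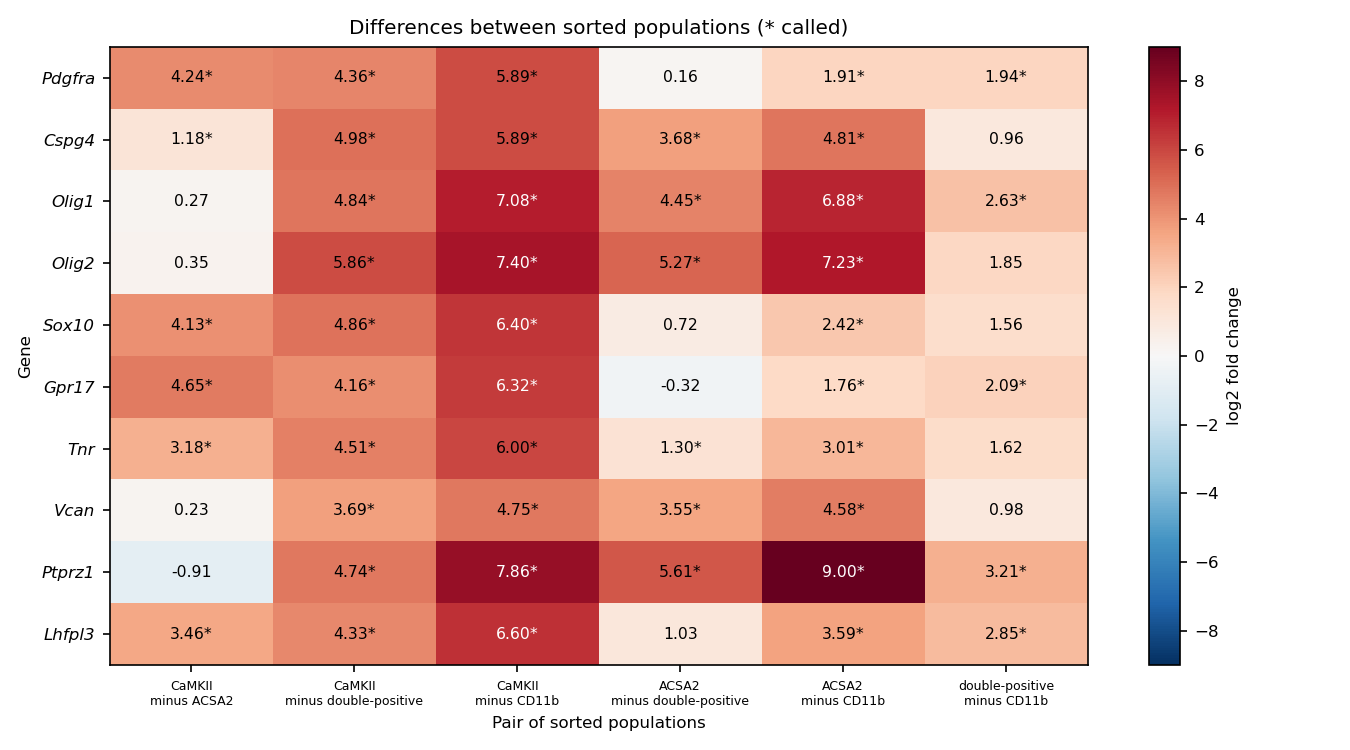
log2FC of each of the 10 genes (rows) for the 6 pairs of populations (columns), as colour and as a printed value, with an asterisk for a call. Against ACSA2, CaMKII libraries were above 3 for Gpr17, Pdgfra, Sox10, Lhfpl3 and Tnr, at 1.18 for Cspg4 and between -0.91 and 0.35 for Olig1, Olig2, Vcan and Ptprz1, while against double-positive and CD11b libraries all 10 were above 3.

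Against double-positive libraries all 10 genes were higher in CaMKII, where 26.4% of 30693 genes were called higher. The log2FC ran from 3.69 ± 0.384 for Vcan (12.9-fold) to 5.86 ± 0.611 for Olig2 (58.2-fold), and the largest p.adj was 2.97e-06, for Gpr17. All 10 genes were higher in 9 of 9 mice that gave both libraries. Both populations came from motor cortex. For 7 of the 10 genes every CaMKII library was above every double-positive library, as for 12.2% of all genes tested, and for Gpr17, Tnr and Lhfpl3 they overlapped at mouse 10. Against CD11b libraries all 10 genes were again higher in CaMKII, where 28.3% of 30663 genes were called higher, with log2FC from 4.75 (Vcan) to 7.86 (Ptprz1), in 10 of 10 mice. Every CaMKII library was above every CD11b library for each of the 10, as for 13.2% of all genes tested. Library size scaling moved the median of all genes from 0.05 to 0.29 against double-positive and from 0.23 to 0.35 against CD11b, with no member changing its call.

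The ACSA2 libraries exceeded the CD11b libraries in all 10 genes, where 32.4% of 30983 genes were called higher, from a log2FC of 1.76 for Gpr17 to 9.0 for Ptprz1. Against double-positive libraries 6 were higher in ACSA2, where 30.7% of 30941 genes were called higher, and these were Ptprz1 (5.61 ± 0.193), Olig2 (5.27 ± 0.416), Olig1 (4.45 ± 0.357), Cspg4 (3.68 ± 0.372), Vcan (3.55 ± 0.271) and Tnr (1.3 ± 0.520, p.adj 0.0264). Pdgfra (0.16 ± 0.486), Sox10 (0.72 ± 0.658), Gpr17 (-0.32 ± 0.513) and Lhfpl3 (1.03 ± 0.671) were not called, with p.adj from 0.17 to 0.779. The Tnr call was lost without the batch term (0.99, p.adj 0.0861) and in 1 fit over all 4 populations (0.98, p.adj 0.055). Without the double-positive library of mouse 10, Lhfpl3 reached 1.56 with a p.adj of 0.0229.

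Double-positive libraries, whose microglial genes were close to those of CD11b libraries, exceeded them in 5 of the 10 genes, where 5.60% of 28752 genes were called higher. These were Ptprz1 (3.21 ± 0.328, p.adj 7.57e-09), Lhfpl3 (2.85 ± 0.961, p.adj 0.0353), Olig1 (2.63 ± 0.610, p.adj 0.00247), Gpr17 (2.09 ± 0.611, p.adj 0.0156) and Pdgfra (1.94 ± 0.557, p.adj 0.0135). The count depended on 1 library: without the double-positive library of mouse 10 it was 2, an alternative added after its values were seen. It was 1 in batch 3 alone, 3 with mouse as a block and 9 in 1 fit over all 4 populations. DESeq2, used as an alternative to edgeR, also called 5, with Tnr (1.61, p.adj 0.0308) and without Gpr17 (2.07), which had no p.adj. Marker lists moved between the same libraries. Double-positive libraries were higher in 6 of 8 astrocyte genes (median log2FC 2.68), 6 of 6 fibroblast (3.31), 5 of 12 mature oligodendrocyte (1.54), 3 of 8 mural (0.94) and 3 of 8 neuronal genes (1.24), and lower in 5 of 6 border macrophage genes (-1.42). None of the 8 microglial (-0.25) or 6 endothelial genes (0.45) was called, and the part of these cells in the members' differences was not tested.

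That library stood apart within its group. In the double-positive library of mouse 10 (burn, batch 1), Tnr was at 73.7 CPM, Gpr17 at 47.2 and Pdgfra at 41.9, against at most 17.4, 11.6 and 14.8 in the other burn libraries. It was the highest of 16 for 9 of the 10 genes, Ptprz1 (71.2 CPM) being the exception. Other lists were high in it too: mature oligodendrocyte genes summed to 474 CPM against at most 152 in the other double-positive libraries, endothelial genes to 531 against at most 246 and fibroblast genes to 132 against at most 13.4. The part of these cells in the members' levels was not tested.

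The CaMKII libraries also differed among themselves. Gpr17 was at 79.6, 52.0, 125 and 146 CPM in the burn libraries of mice 2, 20, 22 and 24, and at 28.8 to 81.9 CPM (median 61.2) in the 6 sham libraries. Lhfpl3 was at 19.8, 24.6, 33.6 and 23.2 CPM in the same burn libraries and at 4.73 to 27.5 (median 15.3) in sham. The burn libraries of mice 22 and 24 were high for Gpr17 and the sham library of mouse 8 was low for both genes. Mouse 22 was among the 2 highest libraries for 9 of the 10 genes, and mouse 8 was the lowest for 6. The library of mouse 8 also had the highest sums of mature oligodendrocyte genes (4329 CPM) and of fibroblast genes (725 CPM) among CaMKII libraries, and the part of that in its low values was not tested. In the CaMKII library of mouse 3, which was left out, Pdgfra (13.2 CPM), Sox10 (3.54), Gpr17 (7.02), Tnr (26.5), Vcan (14.8) and Lhfpl3 (1.10) were under the lowest kept library, while Cspg4 (65.0), Olig1 (87.3), Olig2 (62.0) and Ptprz1 (1727) were within the kept range.

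**Figure D3:**
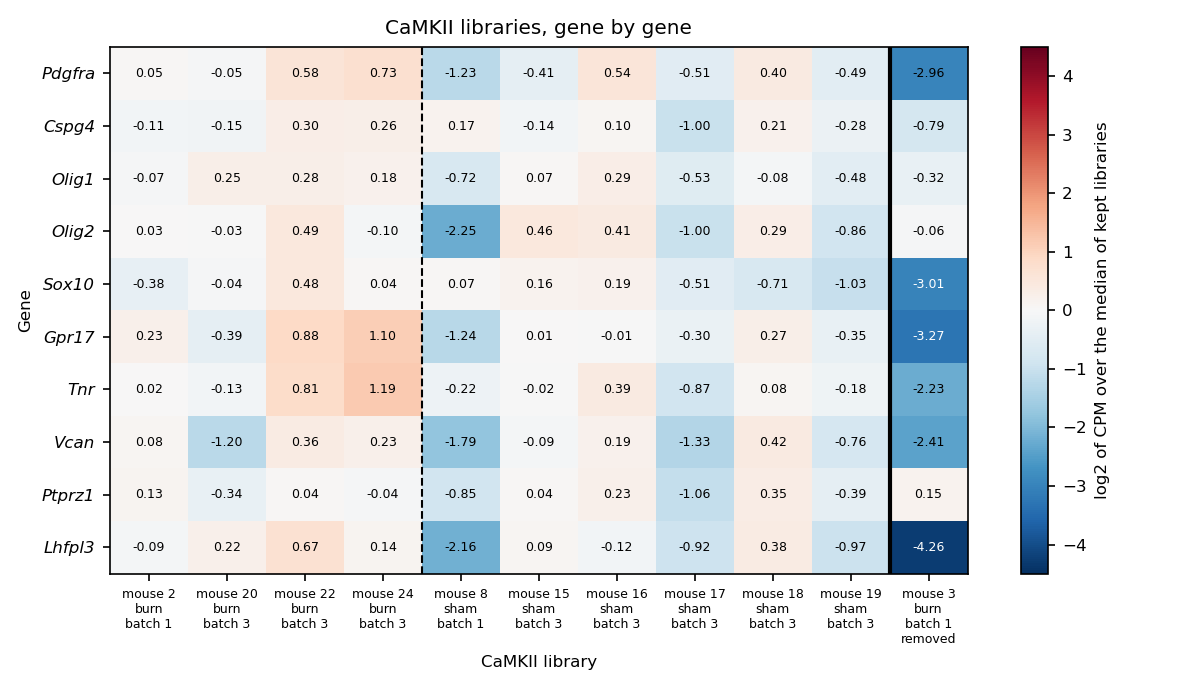
log2 ratio of the CPM of each of the 10 genes (rows) to its median over the kept CaMKII libraries, for each CaMKII library (columns), burn left and sham right of the dashed line, with the library of mouse 3 that was left out at the far right. Gpr17 and Tnr reach 1.10 and 1.19 in mouse 24, Olig2 is at -2.25 in mouse 8, and in mouse 3 Pdgfra is at -2.96 and Lhfpl3 at -4.26 while Olig2 is at -0.06 and Ptprz1 at 0.15.

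The next comparison was the one the study was designed around, burn against sham 5 weeks after injury, fitted within each population with batch as a covariate. edgeR called none of the 10 genes in any population, and it called 0% of all genes tested (0 of 28107 in CaMKII, 0 of 26707 in double-positive, 0 of 27930 in ACSA2 and 0 of 26079 in CD11b). At an unadjusted p under 0.05 it had 1096, 1872, 2984 and 2036 genes in the same order. DESeq2 called 3, 2, 27 and 80 genes, with none of the 10 among them. Burn and sham libraries overlapped for each of the 10 genes in each population, and over all genes tested 0.370% did not overlap in CaMKII, 0% in double-positive, 0.0143% in ACSA2 and 0.0153% in CD11b.

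In CaMKII libraries all 10 log2FC were above 0, with a median of 0.54 beside 0.02 over all genes, although Ptprz1 was at -0.01 in batch 3 alone, without mouse 2 and without mouse 8. Gpr17 stood at 0.88 ± 0.257 (p = 0.00438 by edgeR), Lhfpl3 at 0.89 ± 0.342 (p = 0.0221), Tnr at 0.68 ± 0.262 (p = 0.0214), Pdgfra at 0.65 ± 0.261 (p = 0.0273) and Olig1 at 0.42 ± 0.173 (p = 0.0303), each with a p.adj of 1.00. These 5 of 10 had an unadjusted p under 0.05, where 2.99% of all genes had one and were higher after burn. The 10 genes were read in the same libraries, here and in the other populations, so their values are not separate observations. Olig2 (0.59 ± 0.383), Vcan (0.49 ± 0.402), Sox10 (0.29 ± 0.277), Cspg4 (0.20 ± 0.216) and Ptprz1 (0.20 ± 0.293) had p from 0.15 to 0.517. The number at an unadjusted p under 0.05 was 1 without mouse 22, 2 without mouse 2, 2 without mouse 8, 3 without mouse 19, 3 without mouse 24 and 1 with the left-out library of mouse 3 added. In batch 3 alone it was 2, as without the batch term, and batch 1 held only 1 burn and 1 sham library. For these alternatives the shares of all genes are not given here. Beside these values, microglial genes summed to a median of 1081 CPM in burn and 680 in sham CaMKII libraries, and mural genes to 906 and 1387. Mature oligodendrocyte genes summed to 840 and 881 (means of 828 and 1434). The median log2FC was 0.51 over a list of other OPC genes, 0.61 over proliferation, 0.63 over microglial and 1.05 over border macrophage genes. It was -0.31 over fibroblast, -0.41 over mature oligodendrocyte and -0.51 over mural genes, and between -0.20 and 0.22 over the remaining lists. Whether these bear on the members was not tested.

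**Figure D4:**
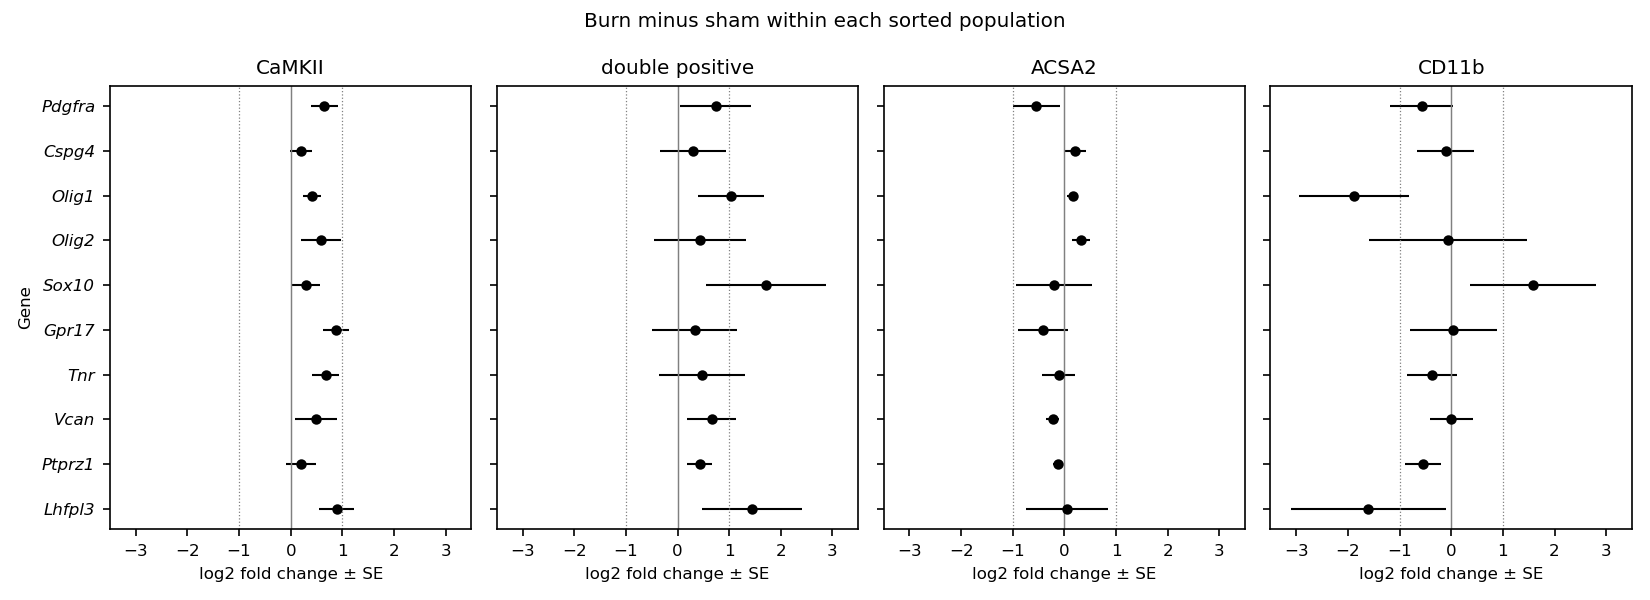
log2FC of burn against sham for each of the 10 genes in each population, with bars of 1 SE and dotted lines at a log2FC of 1 in either direction. All 10 points are above 0 in CaMKII (0.20 to 0.89) and in double-positive libraries (0.30 to 1.71), with none called, and the widest bars are in CD11b.

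In double-positive libraries the 10 values were also above 0, from 0.30 ± 0.637 for Cspg4 to 1.71 ± 1.16 for Sox10, with a smallest unadjusted edgeR p of 0.0919, for Ptprz1, where 49.2% of all genes were above 0. Beside these values, astrocyte genes summed to a median of 893 CPM in burn and 558 in sham double-positive libraries, and microglial genes to 19960 and 19340. Endothelial genes summed to 69.6 and 71.0 (means of 143 and 65.4). The median log2FC was 0.46 over the other OPC genes and 0.34 over astrocyte genes, and between -0.29 and 0.19 over the remaining lists. The part of these genes in the members' values was not tested. None of the 10 had an unadjusted p under 0.05 by edgeR, where 7.01% of all genes had one. The number of members was 5 with genes of any count and 4 without the batch term. Without mouse 18 it was 3, without mouse 12 it was 1, and in batch 3 alone it was 1. The shares of all genes under these alternatives are not given here. Without mouse 24 Pdgfra (-0.04), Cspg4 (-0.21), Gpr17 (-0.85) and Tnr (-0.55) were below 0, and Sox10, the highest value with all kept libraries, fell to 0.18. Sox10 was at 4.53 CPM in the library of mouse 24 and at no more than 0.719 in the other burn libraries of batch 3. Batch 1 held only burn libraries there, the one of mouse 10 included, so that batch gave no burn against sham value. In ACSA2 libraries the values ran from -0.54 ± 0.463 for Pdgfra to 0.32 ± 0.171 for Olig2 (p = 0.0771, the smallest by edgeR). The precision was highest for Olig1 (0.16 ± 0.0999) and Ptprz1 (-0.12 ± 0.102). In CD11b libraries they ran from -1.88 ± 1.06 for Olig1 to 1.58 ± 1.22 for Sox10, genes with a mean under 1 CPM there, and over libraries left out Olig1 ran from -2.32 to -1.14 and Sox10 from 1.11 to 2.53. The smallest edgeR p was 0.0869. By DESeq2 1 of the 10 had an unadjusted p under 0.05, as did 1194 of all genes.

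Whether the burn effect differed between populations was tested with an interaction term, comparing CaMKII with double-positive and ACSA2 with CD11b libraries. None of the 10 genes was called by edgeR or DESeq2. The difference of CaMKII from double-positive ran from -1.52 ± 1.32 (Sox10) to -0.06 ± 1.18 (Gpr17), with a smallest unadjusted p of 0.262, where 0.0228% of all genes (7) were called by edgeR and 173 genes by DESeq2. The difference of ACSA2 from CD11b ran from -1.62 ± 1.28 (Sox10) to 1.15 ± 1.48 (Lhfpl3), where 0.00323% of all genes (1) were called by edgeR and 277 by DESeq2. None of the 10 had an unadjusted edgeR p under 0.05 in either, where 6.77% and 9.8% of all genes had one. By DESeq2 0 and 1 of the 10 had one, beside 1728 and 2335 of all genes. Without the double-positive library of mouse 10, Pdgfra (0.03), Gpr17 (0.76), Tnr (0.38) and Vcan (0.01) were above 0 in the difference of CaMKII from double-positive.

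Batch 3, which held mice 15 to 24, was compared with batches 1 and 2. None of the 10 genes was called by edgeR in CaMKII (0% of all genes), in double-positive (1.12%) or in ACSA2 libraries (1.03%), and 3, 4 and 0 of them had an unadjusted p under 0.05 by edgeR, and 5, 2 and 0 by DESeq2. Of all genes, 5.37%, 21.0% and 17.1% had such a p by edgeR in the same order, and 1456, 4950 and 3784 genes had one by DESeq2. DESeq2 called 118 genes in CaMKII libraries, with none of the 10 among them. In CD11b libraries (0.399%) 2 were called higher in batch 3. Ptprz1 stood at 1.84 ± 0.449 (p.adj 0.0381), at 3.55 to 15.5 CPM in batch 3 against 1.19 to 3.01 in batches 1 and 2. Beside it the matrix genes and Ptprz1 partners summed to 10.6 to 32.4 CPM in batch 3 and 6.43 to 11.25 in batches 1 and 2, and 2 of 6 border macrophage genes (median log2FC 0.98), 1 of 8 mural (0.74) and 1 of 8 proliferation genes (0.82) were called higher in batch 3. The median log2FC was 1.3 over fibroblast, 1.06 over endothelial, 1.01 over astrocyte, -0.24 over mature oligodendrocyte, -0.29 over microglial and -0.80 over neuronal genes, none of them called, and 0.09 over all genes. The part of those cells was not tested. Pdgfra was called too, but batch 2 was a single library with no Pdgfra count, of mouse 13, so the size of its fitted change is not given. Its levels overlapped, at 0.47 to 4.18 CPM in batch 3 and 0 to 2.93 in batches 1 and 2.

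Genes around the members were described from lists. Of 10 other OPC genes 7 were higher in CaMKII than in ACSA2 libraries and 8 than in double-positive libraries, with none lower. Lims2 was at 75.7 ± 19.5 CPM in CaMKII and 8.87 ± 4.04 in ACSA2 (log2FC 3.04), and C1ql1, a C1q-related secreted protein, at 8.19 ± 5.45 and 0.668 ± 0.514 (3.43). Xylt1, which starts glycosaminoglycan chains on proteoglycans, stood at 187 and 330 CPM (-0.95, under the fold required), and Dll3 (3.60 ± 1.49, p.adj 0.0674) was not called.

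Later stages of the lineage were present in the same libraries. Of 8 genes of committed precursors 4 were higher in CaMKII than in ACSA2 libraries, among them Enpp6 (6.07 ± 1.06), a marker of newly forming oligodendrocytes, and Bmp4 (3.66 ± 0.741), while Itpr2 (-0.30) and Tns3 (-0.35) were not called; against double-positive 5 were higher and 1, Tns3 (-1.99), was lower. Of 12 genes of mature oligodendrocytes 10 were higher than in ACSA2 and 11 than in double-positive libraries. The myelin gene Mbp stood at 2.62 ± 0.471 against ACSA2, Opalin at 3.10 ± 0.751, and Aspa (0.60 ± 0.335) was not called. The summed mature genes ran from 385 to 4329 CPM over the CaMKII libraries, the highest being the library of mouse 8 and the next that of mouse 15, at 1660 CPM.

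Of 10 further transcription factors of the lineage, Olig3 had no count. Of the 9 tested, 1 was higher and 4 were lower in CaMKII than in ACSA2 libraries, and all 9 were higher than in double-positive libraries. The lower ones included Id4 (-1.26 ± 0.0912), an inhibitor of helix-loop-helix factors, while Id2 (-0.74 ± 0.105) was under the fold required. Of 6 other PDGF ligands and receptors, 2 were higher and 1 was lower in CaMKII than in ACSA2 libraries, against 4 and 1 for double-positive. Pdgfb, made by endothelial cells and microglia among others, stood at 2.63 ± 0.236 against ACSA2 and at -1.35 ± 0.134 against double-positive libraries. Pdgfc was lower than in ACSA2 (-1.14 ± 0.293), and Pdgfrb, the receptor of mural cells, and Pdgfrl stood at -0.50 and -0.60, not called.

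Of 10 matrix genes and Ptprz1 partners, 2 were higher and 2 lower in CaMKII than in ACSA2 libraries, and 9 were higher than in double-positive libraries. Hapln2, a link protein of nodes of Ranvier, was higher than in ACSA2 (3.94 ± 0.977), and the lecticans Bcan (-0.99 ± 0.165) and Ncan (-0.91 ± 0.124) lay just under the fold required, as Ptprz1 did. Hapln4 was called in neither comparison. Of 8 proliferation genes 1 was higher in CaMKII than in ACSA2 libraries and 1, Pcna (-1.56 ± 0.126), was lower than in double-positive libraries. Mki67, Cdk1 and Birc5 were called in neither, with log2FC of 1.17 ± 0.707, 0.84 ± 1.03 and 1.49 ± 1.24 against ACSA2. No gene of any list was called between burn and sham by edgeR.

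Markers of other cells moved between the populations as well, and their part in the members' differences was not tested. Against ACSA2 libraries, CaMKII libraries were higher in 6 of 6 endothelial, 8 of 8 microglial, 6 of 6 border macrophage, 4 of 6 fibroblast, 2 of 8 mural and 1 of 8 neuronal genes, and lower in 8 of 8 astrocyte genes. Against double-positive libraries they were higher in 8 of 8 astrocyte, 8 of 8 mural, 6 of 6 endothelial, 5 of 6 fibroblast and 6 of 8 neuronal genes, and lower in 8 of 8 microglial and 5 of 6 border macrophage genes. Against CD11b libraries they were higher in all astrocyte, mural, endothelial, fibroblast and neuronal genes and lower in 8 of 8 microglial and 5 of 6 border macrophage genes. ACSA2 libraries were higher than CD11b and double-positive libraries in all 8 astrocyte genes and lower in all 8 microglial and 6 border macrophage genes. They were higher than CD11b libraries in 10 of 12 mature oligodendrocyte genes (1 lower), 7 of 8 mural and 5 of 6 endothelial genes. The same held for 5 of 6 fibroblast and 8 of 8 neuronal genes. Against double-positive libraries these counts were 9 (1 lower), 7, 5, 3 and 5 in the same order. Mural cells also express Cspg4 and Pdgfrb, and the mural list summed to 612 to 1602 CPM in CaMKII and 223 to 863 CPM in ACSA2 libraries.

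**Figure D5:**
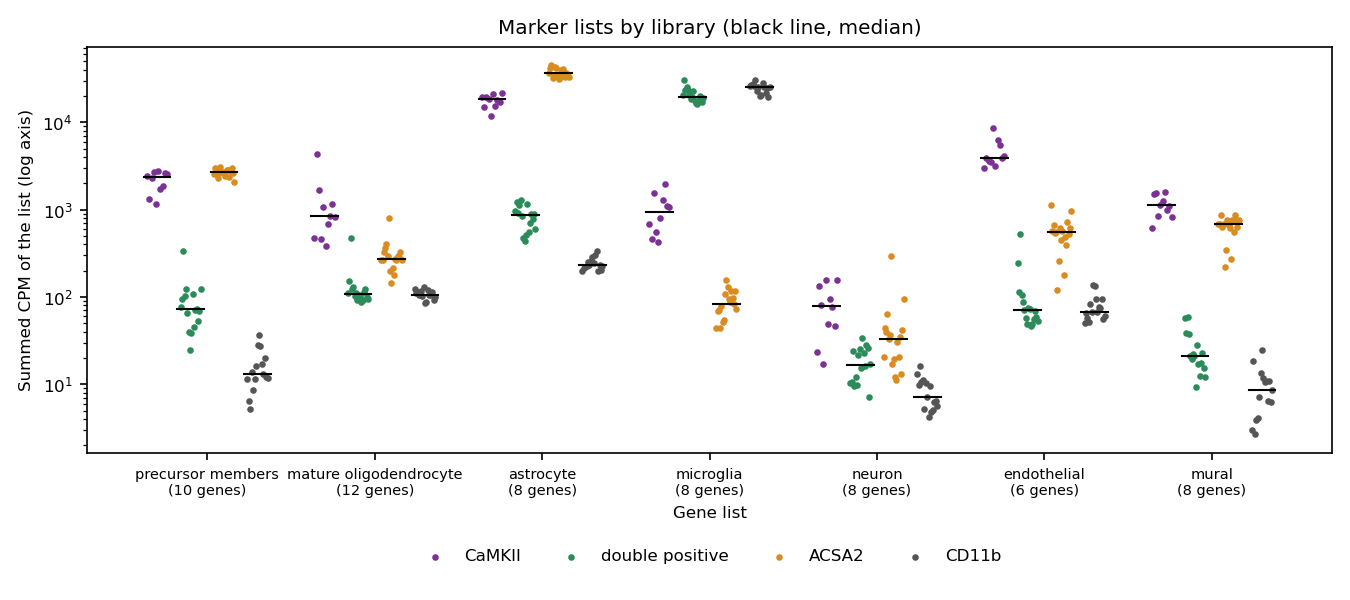
Summed CPM (log axis) of the 10 members and of 6 marker lists in every kept library, coloured by population; each point is 1 library and the black line is the median. In CaMKII libraries the astrocyte list (11670 to 21770 CPM) is far above the neuron list (17.1 to 158 CPM), and in double-positive libraries the microglia list reaches 16010 to 30530 CPM.

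Genes whose levels ran most like those of the 10 were named from a score, the mean over the members of the standardised log2(CPM + 0.5). Over all 58 kept libraries and 17255 genes with a mean of at least 1 CPM, the highest Spearman correlations with the score were those of Cacng4 (0.955), Pllp (0.922), Ephb4 (0.919), Tmtc1 (0.917), Islr (0.916), Epas1 (0.914), Lrrn3 (0.910), Itm2a (0.909), Cntn1 (0.909) and Sorbs2 (0.907). The 58 points fall into the 4 populations, so these values mostly restate the differences between them. Over the 10 CaMKII libraries alone, with 17574 genes, the highest were Orc4 (0.976), Cacng4 (0.952), Zfp870 (0.952), Gm44625 (0.948), Qk (0.939), Gm48889 (0.927), Tsr3 (0.927), Impa2 (0.915), Megf11 (0.915) and Nlgn3 (0.915). Cacng4, a regulator of AMPA receptors and a gene of the other OPC list, was the gene in both sets. Its mean was 34.1 CPM in CaMKII, 1.95 in double-positive, 8.81 in ACSA2 and 0.388 in CD11b libraries. Megf11 was on the other OPC list too, and Cntn1 was among the matrix genes and Ptprz1 partners. With 10 libraries, and depths that differ between them, these values are a description only.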

How the data were processed

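RNA from sorted cells (eGFP, mRuby2, ACSA2 and CD11b gates, after myelin removal) had been made into stranded, ribosome-depleted libraries. The authors trimmed reads with fastp, aligned them with STAR and deposited raw counts per Ensembl gene in 4 tables; the submitters' processing notes name both GRCm39 and mm10, and the strand setting of the counting is not given in the sources used here, so reads of overlapping antisense genes may be included. The deposited DESeq2-transformed values were not used.

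From the counts, CPM and edgeR fits were computed (edgeR 4.0.16 in R 4.3.3, TMM scaling, genes with at least 10 counts in total, batch as covariate; SE was taken as the log2FC divided by the square root of F). Libraries of mouse 3 and the double-positive library of mouse 8 were left out, as in the study. Batch came from the study's sample table. DESeq2 1.42.0, other scalings and filters, no batch term, batch 3 alone, 1 fit over 4 populations, leaving out single libraries and mouse as a block were alternatives. Exon lengths came from a GRCm38 annotation; no coordinates were converted. On simulated counts the fits recovered nearly all changed genes. Those genes were well counted and changed by more than any member did between burn and sham with all kept libraries. The check therefore does not measure the power to find smaller changes or changes in genes near the floor.

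Members and lists were chosen with earlier results of these data known. The 10 members were named throughout; of each other list, the 2 genes with the highest and the 2 with the lowest mean in CaMKII libraries, and the 10 genes most like the members. Some genes that this rule names are not reported here. Markers named for the label check are list genes. A floor of 3 counts was used for genes with no count. Populations of 1 mouse share the animal; deviations from group means correlated weakly (median r over mice from -0.00496 to 0.057 by pair of populations). All columns of the tables were mapped to samples.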

Additional observations from a re-analysis of the deposited data

Results flagged for a closer look

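Each member was looked at in each group for a library that stood far from the others, by the gap to its nearest neighbour over the range of the group, at a limit that chance passes in about 1 of 20 groups. Of 80 group values, 17 passed.

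Of these 17, 9 were the double-positive burn library of mouse 10, with Pdgfra at 41.9 CPM, Cspg4 at 27.2, Olig1 at 26.8, Olig2 at 9.20, Sox10 at 9.07, Gpr17 at 47.2, Tnr at 73.7, Vcan at 21.6 and Lhfpl3 at 8.38. The nearest other burn libraries stood at 14.8, 6.07, 8.84, 1.52, 4.52, 11.6, 17.4, 9.82 and 2.21 CPM in the same order. These 9 values share 1 library and are not separate observations.

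In CD11b burn libraries, Cspg4 stood at 4.45 CPM and Sox10 at 1.5 CPM in mouse 22, and Olig2 at 1.35 CPM in mouse 2. In CD11b sham libraries, Sox10 stood at 0.727, Gpr17 at 3.13 and Lhfpl3 at 1.01 CPM in mouse 18. Sox10 stood at 1.36 CPM in the double-positive sham library of mouse 12. Gpr17 stood at 11.0 CPM in the ACSA2 sham library of mouse 13, against 3.95 in the next, and Pdgfra (13.8 CPM), Lhfpl3 (6.50 CPM) and Tnr (31.2 CPM) were highest in that library too.

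Among the libraries left out, 1 member was above every sham library in CD11b: Vcan reached 106 CPM in that of mouse 3, against 0.273 to 4.17 CPM in the kept CD11b libraries. Proliferation genes summed to 480 CPM and border macrophage genes to 504 CPM in it.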

How the results depend on the processing

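Among counts of called members over the alternatives, a reported 0, as between burn and sham, gives no ratio, and a reported 10 could only fall. Of 208 such counts, 204 stayed within 1.5 times the reported count, many of them at 0 or 10. The others all concerned double-positive against CD11b libraries, where the 5 genes called became 1 in batch 3 alone, 3 with mouse as a replicate block, 9 in 1 fit over all 4 populations and 2 without the double-positive library of mouse 10. The block changed no other count by that much: it left 6 genes called for CaMKII against ACSA2 and 10 for CaMKII against double-positive. Of 130 mean levels, 1 moved by more than the SD of its libraries: Vcan in CD11b was 8.77 CPM with all deposited libraries. That SD is wide in double-positive libraries because of mouse 10, and without that library the double-positive means of all members but Vcan and Ptprz1 fell by over 1.5 times, Gpr17 from 5.27 to 2.47 and Tnr from 8.53 to 4.18 CPM.

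Of 1980 log2FC, 65 changed sign, none of them called as reported. In CaMKII burn against sham, Ptprz1 was -0.01 in batch 3 alone and -0.01 to 0.33 over libraries left out. In double-positive burn against sham the values over libraries left out ran from -0.04 to 1.02 (Pdgfra), -0.21 to 0.57 (Cspg4), -0.85 to 0.54 (Gpr17) and -0.55 to 0.89 (Tnr), each below 0 only without mouse 24. In ACSA2 burn against sham they ran from -0.54 to 0.05 (Sox10), -0.32 to 0.08 (Tnr) and -0.29 to 0.41 (Lhfpl3), with Tnr at 0.13 in batch 3 alone and Lhfpl3 at -0.32 without the batch term. In CD11b burn against sham they ran from -0.73 to 0.20 (Cspg4), -0.67 to 1.21 (Olig2), -0.28 to 0.90 (Gpr17) and -0.32 to 0.27 (Vcan). There, without the batch term, Olig2 was 0.46, Gpr17 -0.20 and Vcan -0.09, in batch 3 alone Gpr17 was -0.25 and Vcan -0.32, and Vcan was -0.02 with DESeq2 or its size factors, -0.03 with library size only and 0.00 under both other filters, as Gpr17 was with all deposited libraries.

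For ACSA2 against double-positive, Pdgfra was -0.03 with genes of any count, -0.02 with all deposited libraries, and -0.01 without the batch term and in 1 fit over all populations; Gpr17 was 0.43 with the block and 0.37 without mouse 10. For double-positive against CD11b, Vcan was -0.12 with all deposited libraries. In the interaction of CaMKII and double-positive, Gpr17 was 0.11 with the block, and without mouse 10 Pdgfra was 0.03, Gpr17 0.76, Tnr 0.38 and Vcan 0.01. Between batches in CD11b, Gpr17 was 0.03 with library size only and 0.02 with DESeq2. The call of Sox10 for ACSA2 against CD11b was lost in batch 3 alone (1.61). The cause of these changes was not tested. Leaving out any library kept the burn calls at 0. Olig1, Olig2, Sox10 and Lhfpl3 were at or under 3 counts in 4, 7, 5 and 8 of the 15 CD11b libraries.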
